A study of Microtus ochrogaster with 25 samples.

Results

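ATP8 and ATP6 are the 2 subunits of ATP synthase that the mitochondrial genome encodes. They are 2 of the 19648 rows of the deposited gene table, ENSMOCG00000000021 for ATP8 and ENSMOCG00000000022 for ATP6. Both were picked out by their place in the mitochondrial gene order, a rule that uses no measured value. The tissue was bulk nucleus accumbens, the part of the striatum tied to reward and attachment, taken from prairie voles (Microtus ochrogaster), small rodents used to study pair bonding and care of young. The labels give a treatment and a sex for each of 25 libraries. That makes 4 groups, with 7 males and 7 females for MAN0 and 5 males and 6 females for MAN1. The labels do not spell out MAN0 and MAN1, which are read here as early-life environments in a study of parental care. The labels give no age, litter or strain, and no allele or agent that all groups carry. They also do not say that each library came from its own animal, so the spread behind each p-value is that of libraries and may be partly technical.

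ATP synthase makes ATP from the proton gradient that the respiratory chain builds across the inner mitochondrial membrane. ATP6 encodes subunit a, which forms the proton path beside the rotating ring of the membrane part. ATP8 encodes a short membrane subunit that sits beside subunit a. All other subunits of the enzyme come from nuclear genes. In mammals the end of the ATP8 reading frame overlaps the start of the ATP6 reading frame, and both are carried by 1 bicistronic RNA. That RNA is cut out of a long heavy-strand transcript, in which the neighbouring transfer RNAs mark most of the cuts. Neurons draw much of their ATP from this enzyme.

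The table pairs no name with either row, so the names rest on the order of identifiers. The first 37 identifiers of this annotation match the 37 places of the conserved vertebrate mitochondrial gene order. All 13 protein places are present in the table, and 0 of the 24 places of ribosomal and transfer RNA are. The 13 rows are called the mitochondrial rows here, and the names of the other 11 are given only as the places they hold. A further check came from the values themselves. Kallisto, the program behind these estimated counts, divides a read that matches several transcripts, and a divided read leaves parts of a count in each row. The ATP8 and the ATP6 values were both not whole numbers in 25 of 25 libraries, while their sum was whole in 25 of 25 (within 0.0005). The other 11 mitochondrial rows were whole in every library. Of 19647 pairs of neighbouring rows in the table, ATP8 with ATP6 was the 1 pair with this pattern in all libraries. In MAN1 female 1, for example, the table lists 31919.906 for ATP8 and 184506.094 for ATP6, which add up to 216426. So these rows share reads with each other, and how many reads were divided cannot be read from the table. Every ATP8 level and every ratio given here depends on that division.

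Library totals lay between 19882151 (MAN0 female 7) and 32570010 (MAN0 male 5) estimated counts. The mitochondrial rows together took between 7.17% (MAN1 female 6) and 17.8% (MAN0 male 2) of a library's total, with a median of 9.65%. The sample titles number the libraries and carry a sample-sheet index, which starts again at 1 with library 17. The first 16 libraries, with 4 from every group, are called run 1. The 9 later ones are called run 2 and hold, for MAN0, 3 males and 3 females and, for MAN1, 1 male and 2 females. Marker genes of the tissue could not be looked up, because the table holds identifiers only.

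ATP6 had more counts than ATP8 in every library. Levels are given as CPM, the count rescaled to a common library size with the TMM method, which matches most genes between libraries. Over all libraries ATP6 stood at 10787 ± 3143 CPM (SD, n = 25) and ATP8 at 1779 ± 547 CPM (SD, n = 25). Among the 13 mitochondrial rows ATP6 had the 4th highest and ATP8 the 10th highest mean CPM. These ranks are of counts and not of counts per base, so they do not order the genes by number of RNA molecules. ATP6 made up 10.5% ± 0.412 and ATP8 1.74% ± 0.128 of the mitochondrial counts (SD, n = 25). Both shares varied less, relative to their size, than the levels did.

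For ATP6, the 7 MAN0 males ranged from 9055 CPM (replicate 1) through a median of 10057 to 22330.2 (replicate 2), with a mean of 11867 ± 4668 (SD, n = 7). The 5 MAN1 males stood at 8734, 10025, 9521, 9659 and 7935 CPM in replicates 1 to 5, a mean of 9175 ± 838 (SD, n = 5). All 5 MAN1 males lay below both the mean and the median of the MAN0 males, and 4 of 7 MAN0 males lay above the highest MAN1 male, so the ranges overlapped. MAN0 male 2 lay far above the next highest MAN0 male (11139 CPM), and without it that group stood at 10123 ± 778 CPM (SD, n = 6). The 7 MAN0 females ranged from 8728 CPM (replicate 2) through a median of 10229 to 14768 (replicate 7), with a mean of 11503 ± 2812 (SD, n = 7). The 6 MAN1 females ranged from 7528 CPM (replicate 6) through a median of 9536 to 13609 (replicate 5), with a mean of 10035 ± 2366 (SD, n = 6). Of the MAN1 females, 4 of 6 lay below the mean of the MAN0 females, and 3 of 7 MAN0 females lay above every MAN1 female.

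For ATP8, the MAN0 males ranged from 1387 CPM (replicate 6) through a median of 1651 to 3997 (replicate 2), with a mean of 1979.8 ± 903 (SD, n = 7). The MAN1 males stood at 1495, 1715, 1674, 1792 and 1299 CPM in replicates 1 to 5, a mean of 1595 ± 198 (SD, n = 5). All 5 were below the MAN0 male mean, but only 2 of 5 were below the MAN0 male median. Without MAN0 male 2 that group stood at 1644 ± 168 CPM (SD, n = 6). The MAN0 females ranged from 1448 CPM (replicate 2) through a median of 1687 to 2462 (replicate 3), with a mean of 1819.8 ± 377 (SD, n = 7). The MAN1 females ranged from 1232 CPM (replicate 6) through a median of 1536 to 2193 (replicate 5), with a mean of 1652 ± 379 (SD, n = 6).

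By mean CPM both genes had the same order of groups: MAN0 males, MAN0 females, MAN1 females and MAN1 males. By median the order was different. ATP6 was then highest in MAN0 females and lowest in MAN1 males, and ATP8 was highest in MAN0 females and lowest in MAN1 females. Each pair of neighbours in these orders differed by less than the larger of their SDs.

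**Figure D1:**
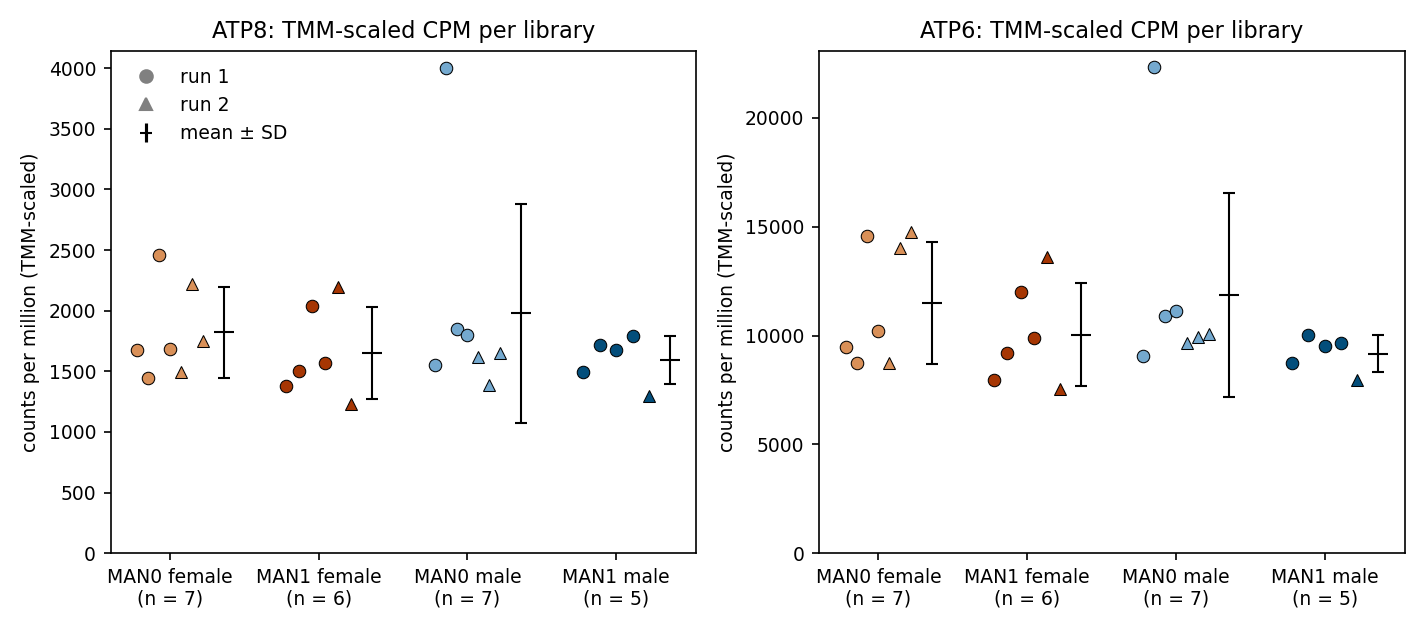
ATP8 (left) and ATP6 (right) in TMM-scaled CPM, with 1 point per library, the 4 groups on the horizontal axis, marks for the run, and bars for the group mean and SD. MAN0 male 2 stands apart in both panels (3997 CPM for ATP8 and 22330.2 CPM for ATP6), and the other libraries of the 4 groups overlap.

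The groups allow the levels to be compared between MAN1 and MAN0 in each sex. Both genes were estimated lower in MAN1 than in MAN0 in each sex, and neither passed the test in any comparison. In bulk tissue, fewer cells of a type and less RNA per cell cannot be told apart. Differences were tested with edgeR's quasi-likelihood test over the 14843 rows that passed the filter on low counts, with group and run as terms and Benjamini-Hochberg adjustment over those rows. Both members passed that filter.

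In males the log2 fold change of MAN1 against MAN0 was -0.38 for ATP6 (SE 0.21, 95% interval -0.81 to 0.04, adjusted p = 0.599 by edgeR). For ATP8 it was -0.35 (SE 0.21, interval -0.78 to 0.08, adjusted p = 0.599 by edgeR). With 0 of 2 members called, the background in this comparison was 0% of tested rows called by edgeR, 7.32% (1087 rows) at an unadjusted p under 0.05, and 0 rows by DESeq2 (1361 unadjusted). A share of 6.36% of the tested rows had a lower log2 fold change than ATP6, and 7.73% a lower one than ATP8. The other 11 mitochondrial rows were all estimated lower as well, by a median log2 fold change of -0.39 (-0.62 to -0.31), while 48.6% of all tested rows were estimated lower. These 13 rows lie on 1 genome and share their libraries, so they are not separate evidence.

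The male difference was smaller without MAN0 male 2. Without that library the log2 fold change was -0.14 for ATP6 (adjusted p = 0.923 by edgeR) and -0.075 for ATP8 (adjusted p = 0.947 by edgeR). In run 1 alone ATP6 differed by -0.49 and ATP8 by -0.46 on the log2 scale. In run 2 alone, where a single MAN1 male faced 3 MAN0 males, the differences were -0.33 and -0.27. MAN0 male 2 is a library of run 1 and took 17.8% of its counts from the mitochondrial rows, against at most 11.1% in the other MAN0 males. Over the male groups, those rows took 11.1% ± 3.04 of the counts in MAN0 (SD, n = 7) and 8.81% ± 0.889 in MAN1 (SD, n = 5). The MAN0 males stood at 9.94% ± 0.741 without MAN0 male 2 (SD, n = 6).

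In females the log2 fold change of MAN1 against MAN0 was -0.21 for ATP6 (SE 0.19, interval -0.61 to 0.20, adjusted p = 0.988 by edgeR) and -0.16 for ATP8 (SE 0.19, interval -0.56 to 0.25, adjusted p = 0.988 by edgeR). None of the 2 members was called, against a background of 0% by edgeR and 1 row by DESeq2. At an unadjusted p under 0.05 edgeR had 365 rows (2.46%) and DESeq2 had 478. The other 11 mitochondrial rows were again all estimated lower, by a median of -0.23 (-0.28 to -0.10), where 48.9% of all tested rows were. The size of the female difference moved with single libraries. ATP8 lay between -0.076 without MAN0 female 6 and -0.32 without MAN1 female 5. It was -0.082 without MAN0 female 3, -0.097 without MAN1 female 6 and -0.099 without MAN1 female 1. ATP6 was -0.13 without MAN0 female 7, -0.13 without MAN1 female 6 and -0.36 without MAN1 female 5. Within run 1 ATP6 differed by -0.14 and ATP8 by -0.17, and within run 2 by -0.24 and -0.090.

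Averaged over the sexes, ATP6 had a log2 fold change of -0.29 (SE 0.14, interval -0.59 to -0.00054, adjusted p = 0.418 by edgeR). ATP8 had a log2 fold change of -0.25 (SE 0.14, interval -0.55 to 0.04, adjusted p = 0.431 by edgeR). Here too 0 of 2 members were called, the background by edgeR was 0%, and 1774 rows (11.95%) had an unadjusted p under 0.05. DESeq2 called 10 rows (2069 unadjusted), 2 higher and 8 lower. The other 11 mitochondrial rows were estimated lower, as 48.7% of all tested rows were, by a median of -0.30 (-0.43 to -0.21). ATP6 was 1 of those 1774 rows, with an unadjusted p of 0.0496 by edgeR, and ATP8 was not (0.0901). The other mitochondrial rows were also among the 1774, except those at the places of ND4L (0.11) and ND5 (0.063). The mitochondrial rows that were had unadjusted p-values by edgeR from 0.0082 (place of ND6) to 0.0417 (place of ND4), below that of ATP6. Without MAN0 male 2 the averaged difference was -0.17 for ATP6 (adjusted p = 0.641 by edgeR) and -0.11 for ATP8 (adjusted p = 0.698 by edgeR).

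The male and the female difference were compared by an interaction term. The male log2 fold change minus the female one was -0.18 for ATP6 (SE 0.28, interval -0.76 to 0.40) and -0.19 for ATP8 (SE 0.28, interval -0.77 to 0.39), with an adjusted p of 1.0 by edgeR for each. Without MAN0 male 2 the sign turned, to 0.059 for ATP6 and 0.074 for ATP8. By edgeR 0% of rows were called for this term and 99 (0.667%) had an unadjusted p under 0.05, and DESeq2 called 1 (148 unadjusted). Both members and all 11 other mitochondrial rows had a term below 0, as 47.5% of tested rows did. A difference between the sexes in the MAN1 against MAN0 fold change was thus not detectable for either gene, and the intervals hold values of either sign.

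Males and females, averaged over MAN0 and MAN1, differed in log2 level by -0.05 for ATP6 (SE 0.14, adjusted p = 0.986 by edgeR) and by 0.0068 for ATP8 (SE 0.14, adjusted p = 0.999 by edgeR). Of the tested rows 0.0135% (2 rows) were called for sex by edgeR, and neither is a mitochondrial row. At an unadjusted p under 0.05 there were 359 rows (2.42%) by edgeR, and DESeq2 called 5 rows. Between run 2 and run 1 the log2 difference was -0.07 for ATP6 (SE 0.15) and -0.20 for ATP8 (SE 0.15), with an adjusted p of 0.999 by edgeR for each, and 0% of rows were called. For ATP8 it was -0.074 without MAN0 male 2 and -0.31 without MAN1 female 5. For ATP6 it was 0.045 and -0.17 without the same libraries. The other 11 mitochondrial rows were all estimated lower in run 2, by a median of -0.11 (-0.20 to -0.0024). The median over all tested rows was -0.0056. For run edgeR had 572 rows (3.85%) at an unadjusted p under 0.05, and DESeq2 called 8 rows.

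**Figure D2:**
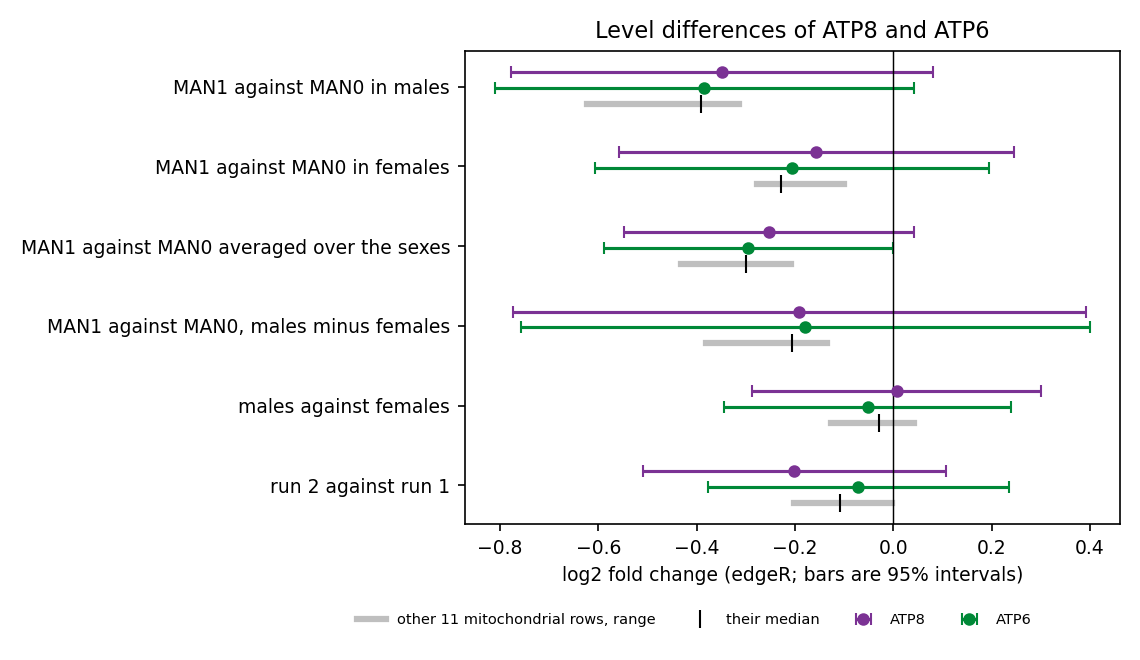
Log2 fold changes of ATP8, ATP6 and the other mitochondrial rows for each comparison, with 95% intervals for the members, from the edgeR fit over 25 libraries. The members lie below 0 in the MAN1 against MAN0 comparisons, together with the other rows, and every interval for a single sex includes 0. The averaged interval of ATP6, not adjusted for the number of rows tested, ends at -0.00054.

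The levels of ATP8 and ATP6 moved together over the libraries. Across the 25 libraries, log2 CPM of ATP8 and of ATP6 had Pearson's r = 0.936 and Spearman's rho = 0.892. Each had a permutation p of 1e-05, the smallest that the 100000 permutations can give. The adjusted permutation p was 2e-05 for each, over the 8 p-values of r and rho in the 4 planned relations. The relation held within run 1 (r = 0.988), within run 2 (r = 0.884) and after leaving out MAN0 female 7 and MAN0 male 2, whose ATP6 lay farthest from the median (r = 0.953). As deviations from group and run means r was 0.949. Without MAN0 female 7 alone r was 0.976, and 0.987 without MAN0 female 7 and MAN0 male 6. ATP6 also followed the summed other mitochondrial rows, with r = 0.986 and rho = 0.975 (permutation p = 1e-05, adjusted p = 2e-05). That relation stood at r = 0.991 in run 1, 0.982 in run 2 and 0.971 without MAN0 female 3 and MAN0 male 2. All these points share a library and its total, and the ATP8 and ATP6 values share divided reads.

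**Figure D3:**
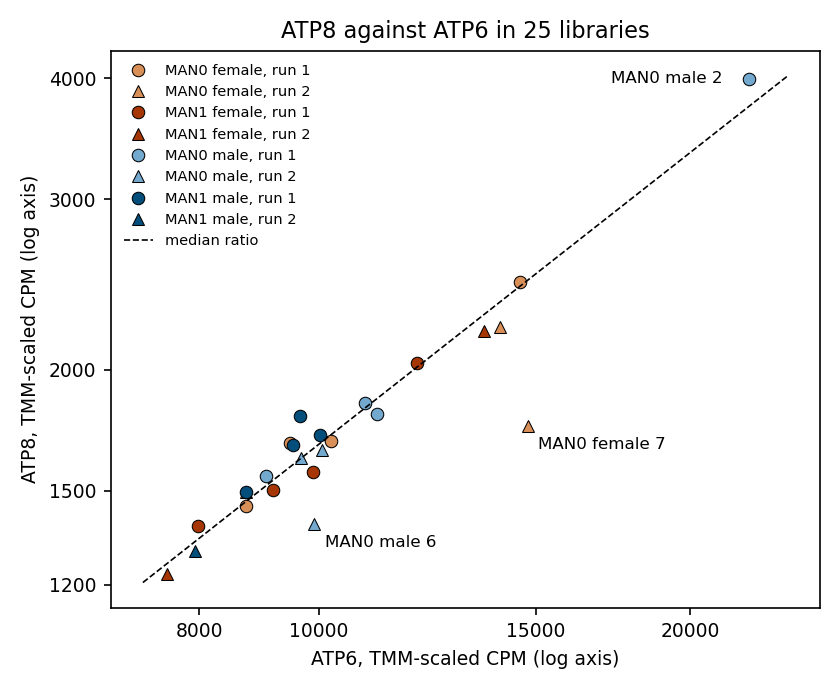
ATP8 against ATP6 in TMM-scaled CPM on log axes, with 1 point per library, coloured by group and marked by run. The points lie close to 1 line (r = 0.936) except MAN0 female 7, which has the highest ATP6 outside MAN0 male 2, and MAN0 male 6. Without both of them r is 0.987.

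The most alike rows were looked for among the 14842 other tested rows, by Pearson's r of log2 CPM as deviations from group and run means over 25 libraries. For ATP6 the closest were ENSMOCG00000000016, at the place of COX1 (r = 0.989), and ENSMOCG00000000023, at the place of COX3 and directly after ATP6 in the gene order (r = 0.986). For ATP8 they were ENSMOCG00000000028, at the place of ND4 (r = 0.968), ENSMOCG00000000016 (r = 0.956) and ENSMOCG00000000027, at the place of ND4L (r = 0.949). ATP6 ranked 4th for ATP8, and ATP8 ranked 11th for ATP6 (r = 0.949). The row at the place of ND4L ranked 3rd for ATP8 and 513th for ATP6 (r = 0.825). These ranks rested on MAN0 female 7 and MAN0 male 6. Without MAN0 female 7, ATP6 ranked 2nd for ATP8 and ATP8 ranked 3rd for ATP6 (r = 0.982), and the row at the place of ND4L ranked 1st for ATP8 (r = 0.983) and 12th for ATP6 (r = 0.955). Without both libraries, a setting added after the data were seen, ATP6 was the closest row to ATP8 and ATP8 the 2nd closest to ATP6 (r = 0.990), after the row at the place of COX1 (r = 0.992). Outside the mitochondrial rows, the 2 rows most like ATP6 were ENSMOCG00000022690 (r = 0.968, rank 6, mean 247 CPM) and ENSMOCG00000012524 (r = 0.956, rank 8, mean 37.7 CPM). The 2 most like ATP8 were ENSMOCG00000021158 (r = 0.908, rank 11, mean 7.45 CPM) and ENSMOCG00000016655 (r = 0.904, rank 12, mean 225 CPM). These 4 rows have no name in the table.

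The ATP8 to ATP6 ratio was taken within each library, as the ATP8 count in percent of the ATP6 count, so the library total and its scaling drop out. ATP8 stood at 16.5% ± 1.30 of ATP6 over all libraries (SD, n = 25), from 11.8% to 18.6% with a median of 16.8%. The MAN0 males ranged from 13.99% (replicate 6) through a median of 16.8% to 17.9% (replicate 2), with a mean of 16.5% ± 1.23 (SD, n = 7). The MAN1 males stood at 17.1%, 17.1%, 17.6%, 18.6% and 16.4% in replicates 1 to 5, a mean of 17.3% ± 0.803 (SD, n = 5). The MAN0 females ranged from 11.8% (replicate 7) through a median of 16.6% to 17.7% (replicate 1), with a mean of 16.1% ± 1.96 (SD, n = 7). The MAN1 females ranged from 15.9% (replicate 4) through a median of 16.4% to 17.3% (replicate 1), with a mean of 16.5% ± 0.531 (SD, n = 6). The 4 groups overlapped, and the widest spread came from MAN0 female 7, without which the MAN0 females stood at 16.8% ± 0.645 (SD, n = 6). MAN0 male 2, the library with the highest levels, had a ratio of 17.9%, below only that of MAN1 male 4 (18.6%). Its ATP8 share of the mitochondrial counts, 1.93%, was the highest of 25.

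**Figure D4:**
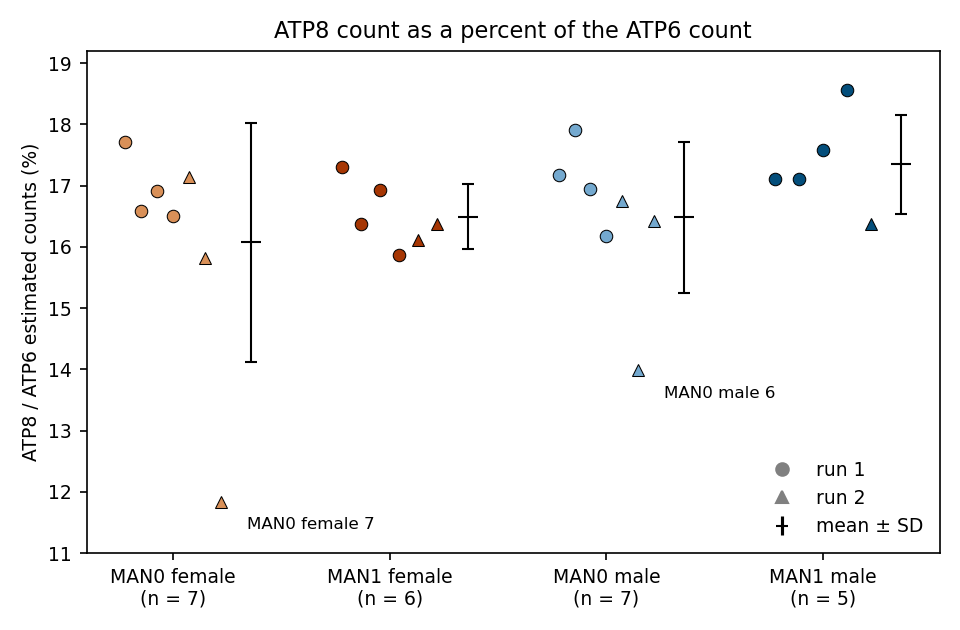
ATP8 in percent of ATP6, 1 point per library, by group and run, with the group mean and SD. MAN0 female 7 (11.8%) and MAN0 male 6 (13.99%), both of run 2, lie below all other libraries, which range from 15.8% to 18.6%.

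Exact permutation tests, 2-sided, were made on log2 of the ratio and on log2 of each member relative to the other 11 mitochondrial rows. Treatment labels were exchanged within run and sex, sex labels within run and treatment, and run labels within each group. That gave 3 measures in 6 comparisons, and p-values were adjusted over these 18 tests. In males the log2 ratio differed between MAN1 and MAN0 by 0.049 (SE 0.067, interval -0.091 to 0.19, exact permutation p = 0.321, adjusted p = 0.805). In females it differed by 0.036 (SE 0.063, exact permutation p = 0.866, adjusted p = 0.898), and this turned to -0.024 without MAN0 female 7. The averaged difference was 0.042 (SE 0.046, exact permutation p = 0.407, adjusted p = 0.805), and 0.017 without MAN0 female 7. The male difference was 0.024 without MAN0 male 6. Males minus females gave 0.013 (SE 0.091, exact permutation p = 0.898), and males against females 0.050 (SE 0.046, exact permutation p = 0.256), or 0.020 without MAN0 female 7. None of these differences passed the threshold, and each was smaller than the spread between libraries.

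Relative to the other mitochondrial rows, ATP6 in MAN1 males stood 0.030 above MAN0 males on the log2 scale (SE 0.039, exact permutation p = 0.321, adjusted p = 0.805). ATP8 stood 0.078 above (SE 0.060, exact permutation p = 0.2, adjusted p = 0.805). In females these values were 0.0086 for ATP6 and 0.044 for ATP8, with exact permutation p-values of 0.84 and 0.567. Single libraries moved these estimates: without MAN0 female 7 the female value of ATP8 was 0.0062 and that of ATP6 0.031, and without MAN1 female 5 that of ATP6 was -0.015. In males, ATP8 stood at 0.047 without MAN0 male 6, and ATP6 between 0.019 without MAN1 male 1 and 0.048 without MAN0 male 3. ATP6 took 10.6% ± 0.254 of the mitochondrial counts in MAN1 males (SD, n = 5) and 10.4% ± 0.328 in MAN0 males (SD, n = 7). ATP8 took 1.83% ± 0.0505 in MAN1 males (SD, n = 5) and 1.72% ± 0.163 in MAN0 males (SD, n = 7). For the ATP8 share, 0 of 5 MAN1 males lay below the MAN0 male mean or median. The ranges overlapped, as 1 of 7 MAN0 males lay above every MAN1 male.

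The ratio was lower in run 2 than in run 1, at 15.6% ± 1.68 (SD, n = 9) against 17.04% ± 0.682 (SD, n = 16). The log2 difference was -0.12 (SE 0.048, interval -0.22 to -0.021, exact permutation p = 0.0049), and the adjusted p of 0.0882 did not pass the threshold of 0.05. Leaving out MAN0 male 4, MAN0 female 5 or MAN1 female 4 brought the adjusted p to 0.0463, 0.0206 and 0.04. Leaving out MAN0 female 7 gave -0.074 with an adjusted p of 0.308. Without both MAN0 female 7 and MAN0 male 6, a choice made after their values were seen, the difference was -0.048 (exact permutation p = 0.0514, adjusted p = 0.671), and the other 7 libraries of run 2 stood at 16.4% ± 0.43 (SD, n = 7). Of the 2 genes, ATP8 had the larger difference between runs. In level, the row at the place of ND4L differed about as much as ATP8 (log2 difference -0.20 for each). Relative to the other mitochondrial rows ATP8 differed by -0.10 (SE 0.043, exact permutation p = 0.022, adjusted p = 0.198) and ATP6 by 0.016 (SE 0.028, exact permutation p = 0.584, adjusted p = 0.808). What differed between the runs in handling is not in the labels and was not tested.

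No relation of the ratio with the level or the library total passed the threshold over all 25 libraries. Against log2 CPM of ATP6, Pearson's r was -0.199, with a permutation p of 0.308 (0.352 adjusted). Spearman's rho was -0.254, with a permutation p of 0.22 (0.293 adjusted). The relation had r = 0.173 in run 1, -0.556 in run 2 and -0.181 without MAN0 female 7 and MAN0 male 2. Without MAN0 female 7 alone it turned to 0.063, and run 2 stood at -0.233. Against the library total it had r = 0.156 (permutation p = 0.397) and rho = -0.288 (permutation p = 0.162, adjusted p = 0.26). That relation had opposite signs in the runs, r = -0.544 in run 1 and 0.504 in run 2, and was 0.21 without MAN0 male 5 and MAN0 male 7. Without MAN0 female 7 the sign over all libraries turned, to -0.231, and run 2 stood at 0.164.

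MAN0 female 7 and MAN0 male 6 were set beside the other libraries row by row. In MAN0 female 7, ATP8 took 1.37% of the mitochondrial counts, the lowest of 25 libraries, where the median of the other libraries was 1.76%. ATP6 took 11.6% there, the highest of 25, against a median of 10.4%. In MAN0 male 6, ATP8 took 1.42%, the 2nd lowest of 25, and ATP6 took 10.2% against a median of 10.5%. So the ATP8 share was low in both libraries, and the ATP6 share was high in 1 of them. In level, MAN0 female 7 had 1749 CPM of ATP8, where the MAN0 female median was 1687. Its ATP6 stood at 14768 CPM, against a median of 10229. MAN0 male 6 had 1387 CPM of ATP8 and 9913 CPM of ATP6. The MAN0 male medians were 1651 and 10057 CPM.

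Mammalian mitochondria have 1 other overlapping pair on a shared RNA, ND4L and ND4, of which ND4L is the short one. The rows at these places, ENSMOCG00000000027 and ENSMOCG00000000028, gave a second ratio of a short gene to its long partner. The row at the place of ND4L stood at 11.97% ± 0.975 of the row at the place of ND4 (SD, n = 25). MAN0 female 7 (7.96%) and MAN0 male 6 (10.9%) had the lowest of these ratios too, and MAN1 male 4 (13.2%) had the highest of both kinds. Over 25 libraries the log2 ratios had r = 0.952 and rho = 0.865. Each had a permutation p of 1e-05, again the smallest possible (adjusted p = 1.667e-05 over r and rho of 5 relations). The value of r was 0.909 in run 1, 0.969 in run 2, 0.956 for deviations from group and run means, and 0.865 without MAN0 female 7 and MAN0 male 6. This relation was chosen after its values were seen. Unlike ATP8 and ATP6, the rows of this second pair held whole counts in every library.

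**Figure D5:**
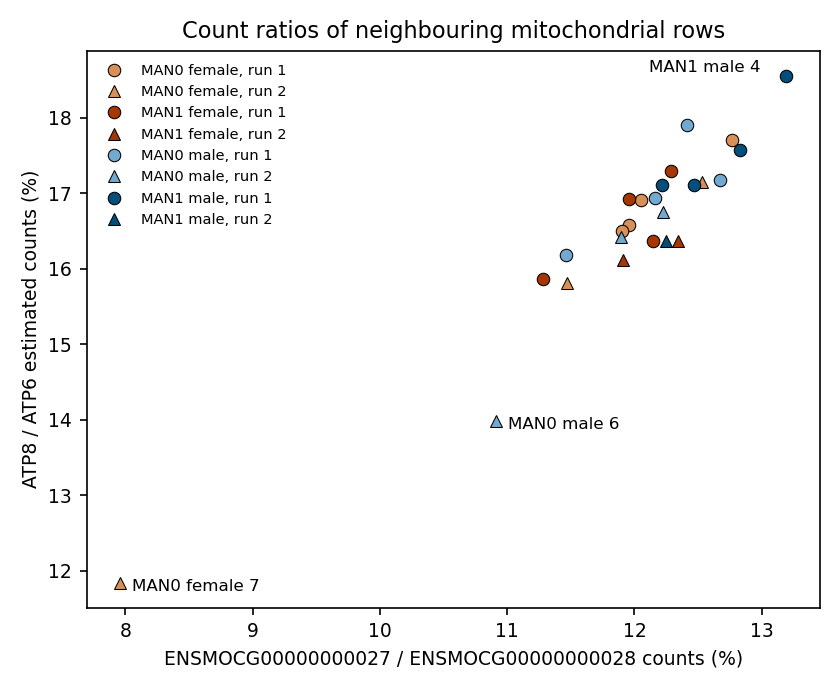
The ATP8 to ATP6 ratio against the ratio of the rows at the places of ND4L and ND4, both in percent, with 1 point per library. MAN0 female 7 (7.96% and 11.8%) and MAN0 male 6 (10.9% and 13.99%) lie at the lower left, and the other 23 libraries follow the same direction.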

How the data were processed

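Per the labels' protocols, libraries were made from bead-captured messenger RNA with a kit that marks strand. The authors deposited estimated counts per gene, made with Trim Galore, MultiQC and kallisto per the submitters' processing notes. For versions, genome build, annotation release and strand setting, the sources used here give nothing. Kallisto divides reads that match several transcripts, so between 9.11% and 10.1% of a library's values were not whole numbers. ATP8 and ATP6 overlap, so their division changes both values.

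Counts were rounded and tested with edgeR 4.0.16 (R 4.3.3) after TMM scaling and filterByExpr with a minimum count of 10, with group and run as terms. DESeq2 1.42.0 was an alternative. The edgeR and permutation scripts were tested on simulated data. Log2 ratios within a library were taken from the estimated counts as deposited and tested by exact permutation. No 2 libraries of a group agreed within sampling noise (67 pairs, smallest chi-square per degree of freedom 11.1).

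The rule for the members uses gene order alone, but these genes, the lists and the tests were chosen for study with earlier results of these data known. Named genes were ATP8, ATP6, the other mitochondrial rows and, for each member, the 2 rows outside them with the highest r. The name table (26397 genes, MicOch1.0) held 0 Ensembl identifiers, so 0 rows matched, and nuclear ATP synthase genes, tissue markers and gene lengths were not analysed here.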

Additional observations from a re-analysis of the deposited data

Results flagged for a closer look

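Group by group, 6 measures were looked at for a library that stands apart from the others of its group (Dixon's test at the 95% level), and 5 of 24 groups and measures had one. Chance flags about 1 in 20 groups, and the measures share libraries and are not independent. MAN0 male 2 stood apart in its ATP8 level of 3997 CPM (the next MAN0 male had 1846 CPM) and in its ATP6 level of 22330.2 CPM (next 11139 CPM). In the same library the mitochondrial rows took 17.8% of the total, and the next MAN0 male had 11.1%. Its ATP8 to ATP6 ratio did not stand apart. MAN0 female 7 stood apart in its ATP8 to ATP6 ratio of 11.8% (the next MAN0 female had 15.8%) and in the ATP8 share of the mitochondrial counts, 1.37% (next 1.67%). Its levels of ATP8 and ATP6 did not stand apart.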

How the results depend on the processing

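The MAN1 against MAN0 level differences of ATP8 and ATP6 in males, in females and averaged over the sexes stayed below 0 under every alternative run (other scalings, no filter, no run term, DESeq2, each run alone, each sex alone, each library left out), and none passed the threshold. In males ATP6 kept an adjusted p of at least 0.291. The ratio in males stayed above 0 and never passed. Some other differences changed sign, as given here, and the causes were not tested.

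Without MAN0 male 2 and MAN0 female 7, the ATP8 interaction was 0.083, the ATP8 sex difference -0.11, and the female difference in the ratio was -0.024, the same as without MAN0 male 6 and MAN0 female 7. The latter setting gave an interaction of -0.011 for ATP6 relative to the other mitochondrial rows. In run 1 alone, the sex difference of ATP6 was 0.14, the female difference in the ratio -0.027, and that of ATP8 relative to the other rows -0.010. For ATP6 relative to the other rows, run 1 gave -0.0063 in males, -0.023 for the interaction and 0.015 for sex. In run 1 the relation of the ratio with the ATP6 level had r = 0.173 and that with the library total r = -0.544, which passed the threshold there. In run 2 alone, the sex difference of ATP8 was -0.32, that of ATP8 relative to the other rows -0.011, and the ratio interaction -0.076.

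With each library left out in turn, the interaction lay between -0.283 and 0.074 for ATP8 and between -0.269 and 0.059 for ATP6. The sex difference lay between -0.11 and 0.070 for ATP8 and between -0.159 and 0.0028 for ATP6, and the run difference of ATP6 between -0.17 and 0.045. The ratio lay between -0.024 and 0.065 in females, -0.021 and 0.084 for the interaction, and -0.143 and -0.074 between runs. Relative to the other rows, the interaction lay between -0.00037 and 0.079 for ATP8 and between -0.0050 and 0.041 for ATP6. ATP6 relative to the other rows lay between -0.015 and 0.031 in females and between -0.0013 and 0.028 between runs. The rows called over the whole table were 0 to 1 for the average, 1 to 3 for sex and 0 to 1 for run.

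DESeq2 called 1 row in females, 10 for the average, 1 for the interaction, 5 for sex and 8 for run. Run 2 alone gave 1 called row in males, 1 in females, 3 for the average and 0 for sex, and run 1 alone gave 1 for sex. Scaling by library totals gave 0 rows for sex.

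The replicate numbers in the titles were not taken to pair the samples in the main fit, since the labels do not say what the numbers stand for. The correlations below do not settle whether libraries with the same number share a source. Over 34 same-numbered pairs the correlation of deviations ranged from -0.344 to 0.486, with a median of 0.0055 and 13 above 0.1. Over 91 pairs of other numbers, groups apart and in 1 run, the median was -0.056 with 16 above 0.1. As a hint from the data, not the design, 14 of 25 libraries correlated best with their own number. Each was compared with the libraries of other groups in its run. How many would do so without any pairing was not worked out. With the replicate block in place of run, ATP6 in males differed by -0.34 (adjusted p = 0.748 by edgeR), ATP8 for sex by -0.0086, the male ratio by 0.018 (exact permutation p = 0.8125), and 1 row was called for sex. Run 2 against run 1 could not be fitted with the block.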

Other observations

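In MAN0 female 7, rows besides ATP8 and ATP6 also had unusual shares of the mitochondrial counts. The row at the place of ND4L (ENSMOCG00000000027) took 0.864%, where the median of the other libraries was 1.45%. The row at the place of ND5 (ENSMOCG00000000032) took 2.42% against 3.88%, the lowest of 25 libraries. The row at the place of ND3 (ENSMOCG00000000025) took 1.56% against 1.19%, the highest of 25. This library also had the smallest total, 19882151 counts. The part of depth in these shares was not tested.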
